A study of Capsella orientalis and Capsella grandiflora with 23 samples.

Results

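The positions described here are single-nucleotide polymorphisms (SNPs) that were informative in crosses of both Capsella species. A position counted as shared when the same scaffold and base was listed for at least 1 of the Capsella grandiflora (Cg) crosses and for at least 1 of the Capsella orientalis (Co) crosses. There were 641 such positions among the 257563 listed in all, or 0.249%. They made up 0.273% of the 234810 Cg positions and 2.74% of the 23394 Co positions. Throughout, they are set against the single-species SNPs, 234169 listed in Cg only and 22753 in Co only. No measured value entered this rule, apart from a position having been listed. Members were nevertheless chosen with earlier results of these data known.

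Endosperm was dissected from 300 to 500 seeds at 6 days after pollination (DAP). In Cg, an outcrossing species, accessions A and B were crossed in both directions, as were C and D. In Co, a selfing species, accessions A and B were crossed in both directions, and these crosses were replicated. With repeat sequencing runs the labels list 6 Cg and 8 Co endosperm RNA entries. The deposited tables hold 2 reciprocal pairs per species, called Cg pair 1, Cg pair 2, Co pair 1 and Co pair 2 after their numbers. Each has a direction 1 and a direction 2, with a maternal and a paternal read count at each SNP. Neither the accessions behind a Cg pair nor the mother of a direction are named in the columns. All crosses were within a species, and the labels give no mutation or treatment.

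A polymorphism can be present at the same base in related species because both inherited the alleles from their common ancestor, or because the same base mutated again in each lineage. An apparent polymorphism can also arise where reads from duplicated gene copies are placed on a single copy of the reference, so that fixed differences between copies are read as alleles. Endosperm is a nutritive seed tissue with 2 maternal genomes and 1 paternal genome, and a gene without parental bias is therefore read mostly from the mother. A SNP whose maternal share flips between the reciprocal directions is read mostly from the same accession each time, which is called accession skew here. The bases of the alleles were not analysed here, so whether both species carried the same pair of bases is not known.

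Like single-species SNPs, shared SNPs were mostly in both pairs within Co and mostly in only 1 pair within Cg. Of the 641, 278 (43.4%) were listed in Cg pair 1 only, 330 (51.5%) in Cg pair 2 only, and 33 (5.15%, 95% Wilson interval 3.69% to 7.14%) in both Cg pairs. Of Cg-only SNPs, 4.11% (4.03% to 4.19%) were in both Cg pairs. On the Co side, 478 shared SNPs (74.6%, 71.1% to 77.8%) were in both Co pairs, against 70.9% (70.3% to 71.5%) of Co-only SNPs. Another 144 were in Co pair 1 only and 19 in Co pair 2 only. Per the labels the Co crosses all use the same accessions, whereas the Cg crosses use 2 accession pairs, and which Cg table holds which is not named. Only 24 shared SNPs, in 23 genes, were in all 4 tables, and 17 of these lay in annotated exons. Of them, 10 were listed in all 8 directions, and none had 20 reads in every direction.

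Co and Cg SNPs fell on the same base more often than on neighbouring bases. Of the 13763 Co SNPs in annotated exons, 376 (2.73%) had a Cg SNP at the same position. At each distance from 1 to 30 bases on either side, a mean of 71 (lowest 48, highest 110) had a Cg SNP. The same-base count was therefore 5.30 times the mean count over all neighbouring distances. Outside annotated exons 265 of 9631 Co SNPs (2.75%) coincided with a Cg SNP, against a mean of 62.5 (43 to 91) at the other distances, a ratio of 4.24. The excess at distance 0 was of the same order against each Cg pair alone, at 5.43 times for Cg pair 1 and 5.26 times for Cg pair 2 in exons, and 4.47 and 4.11 times outside exons. As a yardstick within a species, Cg pair 1 SNPs coincided with Cg pair 2 SNPs 29.0 times as often as at neighbouring distances in exons and 19.0 times outside them. No test was made of these counts, since neighbouring SNPs are not independent.

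**Figure D1:**
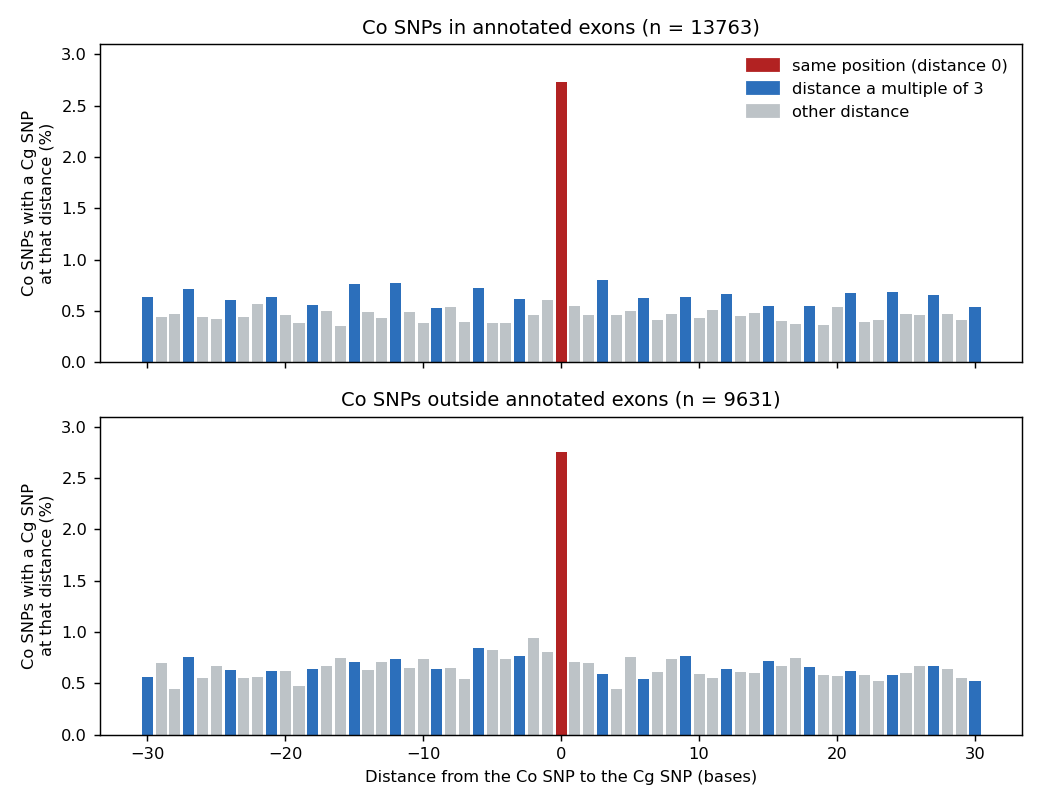
Percentage of Co SNPs that have a Cg SNP at each distance from 30 bases before to 30 bases after, for Co SNPs in annotated exons (top) and outside them (bottom). The bar at distance 0 is the shared SNPs (2.73% and 2.75%). In exons the blue bars at multiples of 3 bases are higher on average than the grey ones, with some overlap.

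The neighbouring distances carried a 3-base pattern in exons. A Cg SNP lay at a distance that was a multiple of 3 bases for a mean of 89.1 exonic Co SNPs (73 to 110 over 20 distances), against 62.0 (48 to 83 over 40 distances) at other distances, a ratio of 1.44. Outside exons the means were 63.8 and 61.9, a ratio of 1.03. Between the Cg pairs the same ratio was 1.69 in exons and 0.980 outside them. Codons have a length of 3 bases, and changes at the last codon position often leave the protein unaltered. Distance 0 is itself a multiple of 3. In exons its 376 matches thus stand against a mean of 89.1 at the other multiples of 3. The exonic ratios given above, taken over all neighbouring distances, are raised by this pattern, also those between the Cg pairs. They are therefore not like for like with the ratios outside exons.

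Genes dense in Co SNPs held an outsized part of the shared set. Co SNPs in the 141 genes with over 20 Co SNPs each included 301 of the 641 shared positions, 4.50% of 6694 Co SNPs, and 86 of these genes had a shared SNP. In genes with 6 to 20 Co SNPs, 61 of 2989 (2.04%) were shared, and in genes with 1 to 5, 279 of 13711 (2.03%). The ratio of the same-base count to the neighbouring mean was 6.49, 3.58 and 3.98 in these classes. So a same-base excess was also present where Co SNPs were sparse.

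The shared SNPs lay in 401 genes, or 4.78% of the 8395 genes with SNPs of both species. Of these genes, 321 had 1 shared SNP, 38 had 2, and 21 had 3 or 4. The other 21 genes had 5 or more each and together held 172 shared SNPs, or 26.8%. Genes with a shared SNP had 6.58 Cg SNPs and 4.78 Co SNPs per kb, against 4.11 and 0.677 per kb in the 7994 other genes with SNPs of both species. Their median length was 2748 bp, against 2602 bp, so length differed less than SNP density. They had a median of 15 Cg and 3 Co SNPs, against 9 and 1. A gene with more SNPs has more chances to hold a shared one, so these densities describe the genes and do not test them.

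All shared SNPs were on scaffolds 1 to 8. The other scaffolds held 1152 Cg and 178 Co SNPs. Scaffold 1 had 132 shared SNPs, scaffold 2 had 101 and scaffold 6 had 99, while scaffold 5 had 25. Per 1000 Co SNPs they ranged from 12.2 on scaffold 5 to 35.6 on scaffold 2. Some stood in runs. When shared SNPs at most 5000 bases apart were joined, 26 runs had at least 5 of them and together held 243 (37.9%). No like share was computed for Co or Cg SNPs, and Co SNPs were themselves dense in some genes. The runs therefore describe the set and are not shown to be particular to it. The largest by count were 24 shared SNPs on scaffold 3 (12552149 to 12565624) in 3 genes and 24 on scaffold 7 (8484266 to 8498643) in 5 genes. The scaffold 3 run held 83 Cg and 128 Co SNPs in all, and the scaffold 7 run 89 and 295. Within 100 bases of another shared SNP were 162 shared SNPs (25.3%). Of the 23394 Co SNPs, 10320 (44.1%) had another Co SNP within that distance. A larger set has more neighbours at a given distance, so these shares do not compare the clustering of the sets.

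The 6 genes with the most shared SNPs are called A to F here and located by scaffold and interval, since the tables pair no name with them. Coordinates are those of the deposited tables, and their genome build is not known here. Gene A (scaffold 7, 8493331 to 8497512, plus strand) held 15 shared SNPs, 14 of them exonic, out of 33 Cg and 98 Co SNPs, so that 45.5% of its Cg SNPs were shared. Gene B (scaffold 3, 12558479 to 12565738, minus strand) held 14, all exonic, out of 65 Cg and 49 Co SNPs. Gene C (scaffold 6, 6233367 to 6243059, minus strand) held 13, of which 3 were exonic. Gene D (scaffold 1, 12812657 to 12814693, plus strand) held 12, of which 2 were exonic, and Gene E (scaffold 3, 12569815 to 12573856, minus strand) held 11, of which 9 were exonic. Gene F (scaffold 2, 1003925 to 1006032, minus strand) held 10, of which 9 were exonic. In Gene D the 12 positions spanned 1369 bases, where 32.4% of 37 Co SNPs were shared. In Gene B the shared SNPs were in 2 separate groups near its 5′ end and its middle, while in genes C and F they were spread along the gene.

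**Figure D2:**
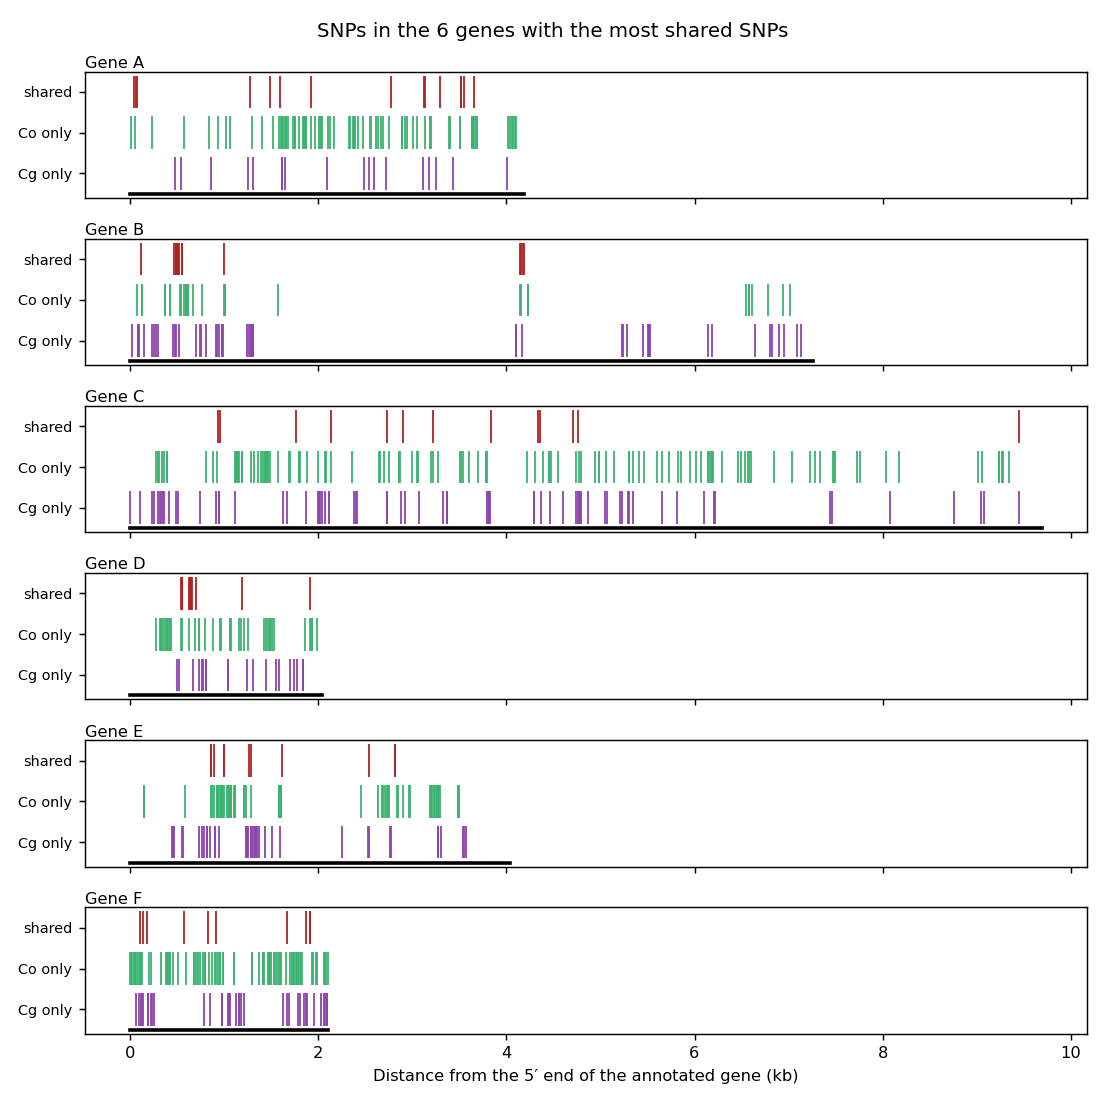
Positions of shared, Co-only and Cg-only SNPs along the 6 genes with the most shared SNPs (10 to 15 each), as distance in kb from the annotated 5′ end, with the black line marking the gene's length. Shared SNPs stand among many single-species SNPs, in tight groups in genes B and D and spread out in genes C and F.

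Reads in these genes showed no common pattern. In Gene E, the shared SNPs of Cg pair 1 were 3.87% maternal of 155 reads in direction 1 and 99.6% maternal of 242 reads in direction 2. The Cg-only SNPs of Gene E in that pair were 51.4% maternal of 1081 reads and 80.7% of 1361 reads, so its shared SNPs flipped with direction more than its other SNPs. In Gene D, the shared SNPs of Cg pair 1 averaged 48.8 and 29.3 reads per SNP in directions 1 and 2, against 291 and 220 for the Cg-only SNPs of the same gene. Their maternal shares were 66.4% and 74.4%, against 66.2% and 72.4% for the Cg-only SNPs. Of their 390 and 234 reads, 341 and 219 came from 1 SNP, at position 12814570. The shared means and shares of Gene D in this pair are therefore mostly those of that SNP. In Gene C, the shared SNPs of Co pair 2 averaged 24.1 and 23.2 reads, against 65.7 and 65.0 for Co-only SNPs. In Gene A, the shared SNPs of Co pair 1 averaged 10.3 and 1 reads in directions 1 and 2, against 7.68 and 1.28 for Co-only SNPs. SNPs of a gene share molecules, since 1 read can cover several, so they are not replicates of each other.

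Exon content differed little between shared and single-species SNPs. An exonic location was given for 376 of the 641. In Cg pair 1, 185 of 311 shared SNPs (59.5%, 53.9% to 64.8%) were exonic, against 55.1% of 114072 Cg-only SNPs. Exonic SNPs of Cg pair 2 were 211 of 363 (58.1%, 53.0% to 63.1%), against 57.1% of 129711. For Co pair 1 they were 367 of 622 (59.0%, 55.1% to 62.8%), against 59.6% of 22007, and in Co pair 2 312 of 497 (62.8%, 58.4% to 66.9%), against 61.9% of 16887. The share was higher in 3 of 4 tables, by a mean of 1.43 percentage points (SD 2.12, n = 4 tables, exact two-sided sign-flip permutation test p = 0.25, in a design that cannot pass 0.05). The difference was 1.63 points against single-species SNPs of the same genes, and 6.31 points with members required in both tables of the other species. It turned to -2.63 points without the genes that hold 5 or more shared SNPs, and to -5.33 points with 1 shared SNP per gene. Dividing genes into 3 equal stretches, exonic shared SNPs were 37.8% in the 5′ stretch, 26.6% in the middle and 35.6% in the 3′ stretch, against 32.1%, 27.6% and 40.3% for exonic Cg-only SNPs and 34.8%, 26.9% and 38.3% for exonic Co-only SNPs.

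Shared SNPs were read less deeply than single-species SNPs in every direction. In Cg pair 1 they averaged 51.7 reads per SNP in direction 1 and 50.5 in direction 2, against 91.6 and 89.4 for Cg-only SNPs. Depth in Cg pair 2 was 5.48 and 7.50 reads, against 7.66 and 8.79. Depth in Co pair 1 was 18.6 and 11.9 reads, against 23.8 and 16.2 for Co-only SNPs. In Co pair 2 they averaged 27.0 and 30.5 reads, against 38.8 and 40.6. The mean log2 ratio was -0.51 (SD 0.21, range -0.82 to -0.23), lower in 8 of 8 directions (exact two-sided sign-flip permutation test p = 0.0078125, the smallest that 8 directions allow). Both directions of a table draw on the same SNP list (52.3% to 83.6% of a table's shared SNPs were listed in both), and both Co pairs come from the same accessions, so these 8 units are not fully independent. Nothing in the labels says how the plants of different crosses were kept apart, and the p-values measure the spread between these libraries only.

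**Figure D3:**
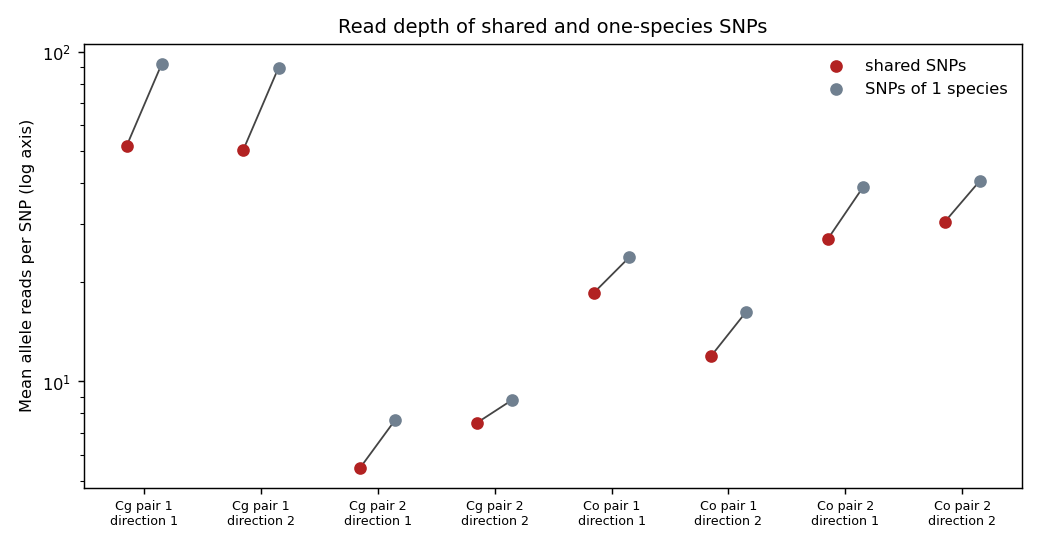
Mean allele reads per SNP (log axis) in each of the 8 directions, for shared SNPs (red, left) and single-species SNPs (grey, right), joined by a line. Each red point lies below its grey partner, from 5.48 against 7.66 reads to 51.7 against 91.6 reads.

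The lower depth was present in exons and was not seen outside them. Among exonic SNPs alone the mean log2 ratio was -0.61 (exact permutation p = 0.0078125), and among SNPs outside exons it was 0.03 (exact permutation p = 0.414). Against single-species SNPs of the same 401 genes it was -0.43 (exact permutation p = 0.0078125). Taken by species, the mean was -0.59 in Cg and -0.43 in Co, each lower in 4 of 4 directions, and the difference between species was -0.16 (exact permutation test p = 0.343). The medians were closer, at 10 and 9 reads for shared SNPs of Cg pair 1 against 14 and 14 for Cg-only SNPs, and at 2 and 5 reads in Cg pair 2 for shared and Cg-only SNPs alike. In the Co pairs, medians of 9, 3, 5 and 6 reads stood against 11, 4, 7 and 8. Nor were shared SNPs plentiful among the deepest positions. The deepest 1% of SNPs in a table held 1 of 311 shared SNPs in Cg pair 1 (0.322%), 3 of 363 in Cg pair 2 (0.826%), 5 of 622 in Co pair 1 (0.804%) and 3 of 497 in Co pair 2 (0.604%). Each of the 4 Wilson intervals included 1%.

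Reads over shared SNPs were somewhat less maternal. They numbered between 1217 and 14593 per direction, which was 0.153% to 0.233% of all allele reads in Cg and 1.96% to 2.16% in Co. In Cg pair 1 the maternal share was 61.8% (Wilson interval 61.0% to 62.6%) and 62.0% (61.2% to 62.7%) over shared SNPs, against 63.9% and 65.6% over Cg-only SNPs. In Cg pair 2 it was 49.7% (46.9% to 52.5%) and 55.5% (53.6% to 57.4%), against 52.7% and 61.3%. In Co pair 1 it was 58.3% (57.4% to 59.2%) and 54.8% (53.3% to 56.3%), against 60.8% and 64.5% over Co-only SNPs. In Co pair 2 it was 66.9% (66.1% to 67.8%) and 54.8% (54.0% to 55.7%), against 66.3% and 65.0%. Intervals cover counting error only, and reads are not independent molecules.

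The maternal share of shared SNPs was lower in 7 of 8 directions, with a mean difference of -4.55 percentage points (SD 3.78, range -10.2 to 0.587, exact two-sided sign-flip permutation test p = 0.015625). A few deep SNPs carried much of each sum. The SNP at position 2995480 of scaffold 2 gave 14.3% of all shared reads of Co pair 2 direction 1, where it was 85.5% maternal, and 11.6% in direction 2, where it was 24.4% maternal. Without the most-read shared SNP of each direction the mean difference was -4.45 (exact permutation p = 0.015625). Against single-species SNPs of the same genes it was -4.11 (exact permutation p = 0.102), and with members required in both tables of the other species it was -3.99 (exact permutation p = 0.0859), so neither passed 0.05. It was -2.69 (p = 0.0625, exact permutation) without the deepest 1% of SNPs, and -1.40 (p = 0.648, exact permutation) outside exons. By species it was -3.65 points in Cg and -5.45 in Co, and these differed by 1.80 points (exact permutation test p = 0.514).

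**Figure D4:**
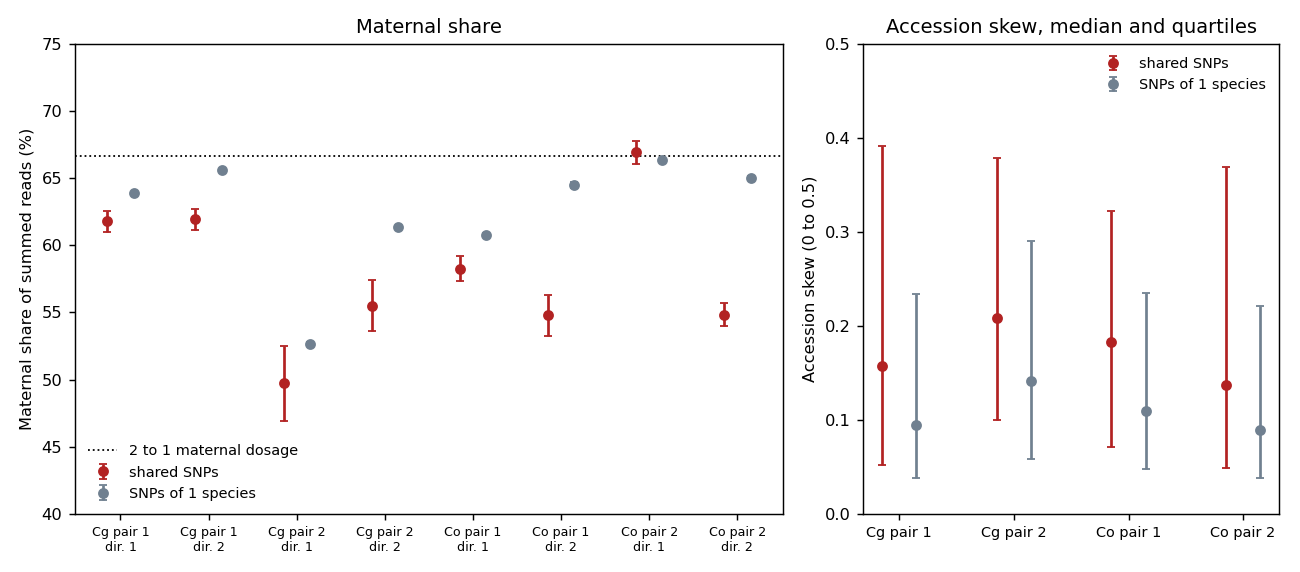
Left, maternal share of summed reads (%, 95% Wilson intervals, axis from 40) for shared SNPs (red) and single-species SNPs (grey) in each direction, with a dotted line at the 2 to 1 dosage. Right, median accession skew (0 to 0.5) with quartiles per table: the shared medians of 0.137 to 0.208 lie above the single-species medians of 0.0891 to 0.141, with wide overlap of the quartiles.

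Accession skew was larger at shared SNPs in all 4 tables. It is given as the absolute difference of the maternal shares of directions 1 and 2, divided by 2, so that 0 means equal shares and 0.5 means that every read came from 1 accession. It was computed at SNPs with at least 10 reads in each direction. The median was 0.157 over 126 shared SNPs of Cg pair 1, against 0.0947 over 53123 Cg-only SNPs. For Cg pair 2 it was 0.208 over 27 shared SNPs, against 0.141 over 12788. For Co pair 1 it was 0.183 over 69 shared SNPs, against 0.110 over 3192 Co-only SNPs, and in Co pair 2 0.137 over 128, against 0.0891 over 5622. The mean difference was 0.0626 (SD 0.0109, n = 4 tables, with the exact permutation p at the smallest value that 4 tables allow, which is above 0.05). Low depth by itself widens the skew, so SNPs were also split by the reads of their shallower direction. The shared median was the higher one in all 12 combinations of table and depth class, though 1 of these rested on 3 shared SNPs. Outside exons the mean difference was -0.0712, over few shared SNPs. Their median skew there was 0.371 over 30 SNPs in Cg pair 1, against 0.360 for Cg-only SNPs, and 0.352 over 2 SNPs in Cg pair 2, against 0.471. It was 0.323 over 9 SNPs in Co pair 1, against 0.453 for Co-only SNPs, and 0.404 over 22 in Co pair 2, against 0.45. Cg pair 1, with the most SNPs, thus kept a slightly higher value at shared SNPs. Single-species medians outside exons, from 0.360 to 0.471, were in each pair above the median over all its single-species SNPs.

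Nearly complete skew, of 0.45 or more, was more frequent at shared SNPs by a small margin. In Cg pair 1 it was reached by 22 shared SNPs (17.5%, Wilson interval 11.8% to 25.0%), against 10.9% of Cg-only SNPs. It was reached by 5 in Cg pair 2 (18.5%, 8.18% to 36.7%), against 14.1%. It was reached by 9 in Co pair 1 (13.0%, 7.02% to 23.0%), against 9.43% of Co-only SNPs, and in Co pair 2 by 23 (18.0%, 12.3% to 25.5%), against 13.3%. The single-species value lay within the shared interval in 3 of the 4 tables and below it in Cg pair 1. Skew could be measured in both species at 80 shared SNPs. Where both pairs of a species had a value, the higher one was used. Of these, 6 were nearly complete in both species, 4 in Cg only, 10 in Co only, and 60 in neither. Over all shared SNPs, both pairs had a value at 65 in Co and at 1 in Cg, so Co had more chances to reach 0.45. The counts for Cg only and Co only are therefore not like for like.

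The Co pairs, which repeat the same cross, gave the same direction of skew at shared SNPs more often than not. Of 65 shared SNPs with at least 10 reads in all 4 Co directions, 51 (78.5%) differed between directions with the same sign in both pairs, as did 67.9% of 3115 Co-only SNPs. The difference was at least 20 percentage points in both pairs at 31 shared SNPs (47.7%), and the sign was the same at all 31. It was that large in both pairs at 898 Co-only SNPs (28.8%), of which 818 had the same sign.

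Accession was then tested SNP by SNP with edgeR's quasi-likelihood test, in a model whose terms were the parent of origin, the library (as a block) and, within each pair, the allele's accession. In Co, 21 of the 65 shared SNPs tested (32.3%) differed between accessions at an adjusted p under 0.05, against 22.8% of all 3180 SNPs tested. The 65 lay in 52 genes, so they are not all independent. No interval was computed for the share of the 65 called, here or for parent of origin, and these shares were not tested against those of all SNPs. In Cg a SNP had to be listed in both pairs with 10 reads in every direction, and 1 shared SNP met this. It did not pass the accession test, for which 20% of 1049 SNPs were called.

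Parent of origin was called at 8 of the 65 shared SNPs in Co (12.3%), against 5.19% of the 3180 tested, and 7 of the 8 were paternal relative to the 2 to 1 dosage. Among all Co SNPs tested, 72 calls were maternal and 93 paternal. The median log2 deviation from the dosage was -0.36 over the 65 shared SNPs, against 0.06 over all 3180. Of the 65, 40 were below 0 and 25 above, a split that was not counted over all SNPs. The fit had 1 residual degree of freedom per SNP, and 4 of the 8 also passed the accession test. The counts depended on the model for shared SNPs and for all SNPs. DESeq2 called 0 of the 65 (7 had an unadjusted p under 0.05, against 14 with edgeR) and 47 of all 3180, and the edgeR fit without the library block called 3 of the 65 and 129 of all. With any 1 direction left out, 0 of the 65 and at most 1 of all 3180 were called, so those fits say nothing about the shared SNPs in particular. In Cg, 2.86% of 1049 SNPs were called for parent of origin, and the 1 shared SNP tested, on scaffold 1 at 12814570, was not (log2 deviation -0.39 ± 0.65 SE, edgeR adjusted p = 0.996).

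That SNP, in an exon of Gene D, was the only maternal call among the shared SNPs in Co. Its maternal share was 93.9% of 33 reads and 86.0% of 43 reads in Co pair 1, and 78.1% of 64 and 92.1% of 76 in Co pair 2. All 4 Co values were above the dosage, and it deviated from the dosage by 1.91 ± 0.53 on the log2 scale (SE over 4 directions, edgeR adjusted p = 0.00808). In Cg pair 1 its maternal share was 64.5% of 341 reads and 74.4% of 219 reads. In Cg pair 2 it was 0 of 11 reads, too few to set a share below 27.3%, and 83.3% of 18 reads. Most of its reads were thus maternal in both directions of 3 tables, without the flip of a skewed SNP.

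The paternal calls in Co included strongly skewed SNPs. At position 2995480 of scaffold 2, exonic in a gene at 2995327 to 2996389 on the plus strand, the maternal share was 83.8% of 1026 reads and 25.3% of 392 in Co pair 1, and 85.5% of 1640 and 24.4% of 1485 in Co pair 2. It flipped alike in both Co pairs, and its deviation was -0.56 ± 0.10 (SE, edgeR adjusted p = 7.43e-07). In Cg pair 2 it was 43.3% of 97 reads and 65.1% of 106. At position 3427358 of scaffold 6, also exonic, the share was 94.3% of 262 reads and 1.75% of 171 in Co pair 1, and 98.4% of 307 and 3.04% of 427 in Co pair 2, and its deviation was -1.14 ± 0.28 (SE, edgeR adjusted p = 0.00161). Without direction 2 of Co pair 1, where the accession effect of that pair can no longer be fitted, both deviations changed sign, to 0.08 at 2995480 and 0.67 at 3427358.

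Outside exons, position 7239689 of scaffold 4 was 64.5% maternal of 31 reads and 0 of 17 in Co pair 1, and 98.6% of 74 and 0 of 77 in Co pair 2, with a deviation of -3.45 ± 0.92 (SE, edgeR adjusted p = 0.0055). Position 7695799 of scaffold 2, within the interval of a gene at 7693692 to 7697039, deviated by -3.44 ± 0.68 (SE, edgeR adjusted p = 2.87e-05), and by 1.78 without direction 2 of Co pair 1. Where a parent has no reads in some direction, the size of the fitted deviation rests on edgeR's prior count.

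The 8 shared SNPs deepest in both species, at most 1 per gene, differed in where they were skewed. Each was listed in Cg pair 1 and in both Co pairs. SNP 1 (scaffold 8, 633070, exonic) was 30.6% maternal of 1170 reads and 72.3% of 1058 in Cg pair 1. Its Co pair 1 values were 97.8% maternal of 367 reads and 5.61% of 196, and in Co pair 2 97.7% of 435 and 1.82% of 495. It was thus read almost wholly from 1 accession in Co and from both in Cg. SNP 4 (scaffold 2, 7695799, the SNP outside exons described above) was nearly complete in both species, at 0.608% of 329 reads and 94.8% of 348 in Cg pair 1. In Co pair 1 it was 88.3% of 111 reads and 0 of 75, which allows up to 4%, and in Co pair 2 100% of 290 reads and 0 of 240, which allows up to 1.25%.

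SNP 5 (scaffold 2, 772122, exonic) was skewed in part, at 97.7% of 177 reads and 67.9% of 156 in Cg pair 1, 29.8% of 131 and 88.2% of 85 in Co pair 1, and 24.5% of 257 and 86.2% of 253 in Co pair 2. SNP 6 (scaffold 1, 14898605, exonic) had little skew in Cg pair 1, at 62.8% of 231 reads and 54.5% of 222. In Co its skew was complete or nearly so. The Co pair 1 shares were 0.820% of 122 and 100% of 111. Those of Co pair 2 were 0.714% of 140 and 98.6% of 278. SNP 7 (scaffold 5, 12007125, outside exons) had the same contrast, at 54.5% of 224 reads and 59.1% of 232 in Cg pair 1, 95.9% of 74 and 8.77% of 57 in Co pair 1, and 93.9% of 212 and 11.7% of 231 in Co pair 2. SNPs 6 and 7 were therefore skewed in both Co pairs and had little skew in Cg pair 1, a contrast wider than their counting intervals. Little skew is not the 2 to 1 dosage. In Cg pair 1 the intervals of SNP 7 in both directions (up to 60.9% and 65.2%) and of SNP 6 in direction 2 (up to 60.9%) lay below it.

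The other 3 had like shares in both directions of each table. SNP 2 (scaffold 4, 5994674, exonic) was 57.4% maternal of 54 reads and 56.9% of 657 in Cg pair 1, 60.8% of 250 and 66.1% of 434 in Co pair 1, and 56.0% of 516 and 57.6% of 1199 in Co pair 2. It was among the paternal calls in Co, with a log2 deviation of -0.42 ± 0.12 (SE, edgeR adjusted p = 0.0182). SNP 3 (scaffold 7, 5943531, exonic) ranged from 61.3% of 563 reads in Cg pair 1 direction 1 to 70.8% of 343 reads in Co pair 2 direction 1. SNP 8 (scaffold 7, 8489962, exonic) ranged from 57.1% of 56 reads in Co pair 1 direction 2 to 72.7% of 165 reads in Co pair 2 direction 1. Maternal shares that do not flip with direction are given both by a SNP without accession skew and by copies carried by both parents, and these cannot be told apart from the counts.

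**Figure D5:**
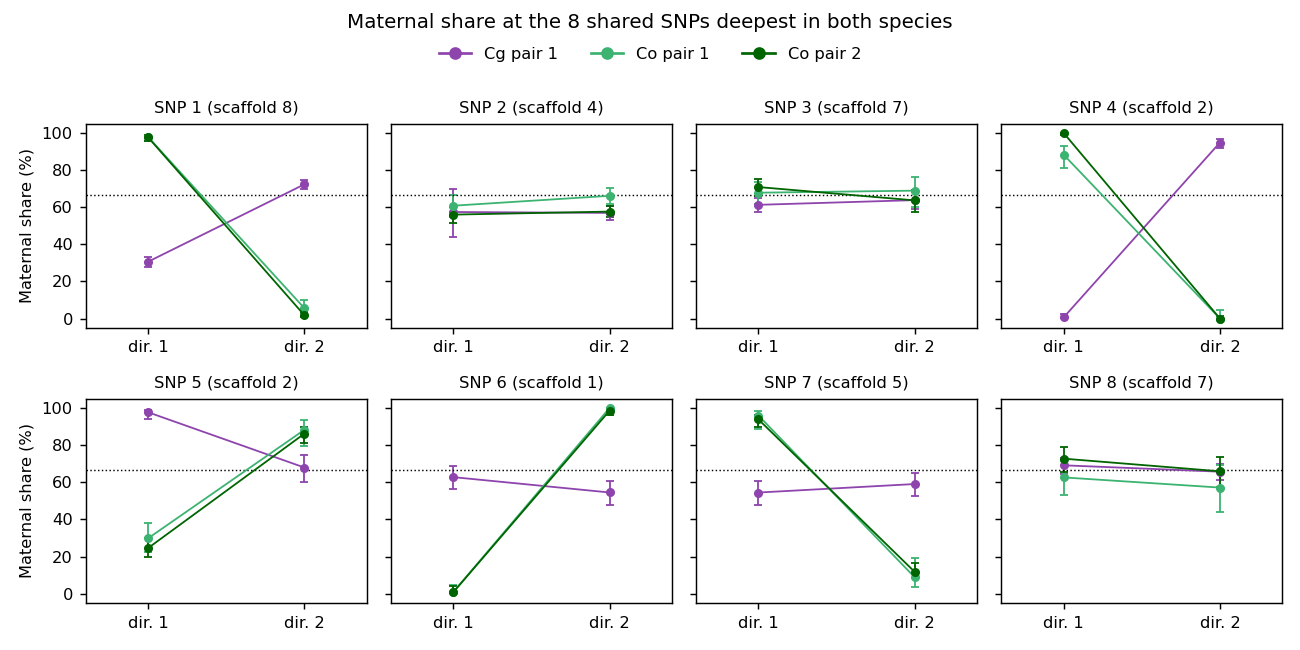
Maternal share (%, 95% Wilson intervals) in both directions at the 8 shared SNPs with the highest mean depth in the less deeply read species, for Cg pair 1, Co pair 1 and Co pair 2, with a dotted line at the 2 to 1 dosage. Lines that cross the dotted line steeply are skewed SNPs, such as SNP 4 in both species and SNPs 6 and 7 in Co, while SNPs 2, 3 and 8 stay between 56.0% and 72.7%.

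The largest skews with at least 50 reads in each direction were complete or almost so. At position 3197240 of scaffold 2, exonic in a gene at 3196218 to 3197560 on the minus strand, all 279 reads were maternal and all 85 paternal in directions 1 and 2 of Cg pair 1. In Co pair 2, 0 of 62 reads were maternal in direction 1, which allows up to 4.84%, and all 59 were maternal in direction 2, so that this SNP had a skew of 0.5 in both species. At position 17341581 of scaffold 1, exonic, 0 of 48 and all 36 reads were maternal in Cg pair 2, 0.877% of 114 and all 55 in Co pair 1, and 1.03% of 195 and 99.5% of 188 in Co pair 2. At position 1427601 of scaffold 4, exonic, skew was complete in Cg pair 2, where 0 of 63 and all 83 reads were maternal. It was partial in Co, at 50% of 104 reads and 72.5% of 80 in Co pair 1, and 48.9% of 182 and 85.3% of 279 in Co pair 2.

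The remaining SNPs with the largest Cg skew were thinly read in Co. Position 14196764 of scaffold 6, outside exons, had a skew of 0.491 in Cg pair 1 and between 2 and 20 reads per Co direction. Position 2331117 of scaffold 2, exonic, had a skew of 0.484 in Cg pair 1 and between 1 and 16 reads per Co direction. At least 50 reads in both directions were present at 62 shared SNPs in a Cg table and at 43 in a Co table, and at 437 of the 641 no table had the 10 reads per direction that a skew value needed. The values by SNP above thus describe the well-read part of the set. Whether a given shared SNP is an inherited polymorphism, a repeated mutation or a product of duplicated copies was not tested.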

How the data were processed

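Per the file headers, the deposited tables give whole-number counts of reads carrying the maternal or paternal allele at each SNP, in 2 cross directions, with exon and gene intervals. The authors' counts were used as deposited, from 4 columns of each table. Trimmomatic, Bismark and Bowtie2 are named, without version or role, per the submitters' processing notes. How repeat runs were combined, and which annotation, genome build, SNP caller and RNA aligner were used, is not given in the sources used. A SNP lost or misplaced in alignment would be lost or misplaced here too. The leaf DNA samples were not analysed here.

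Columns name no sample, so species was taken from the table names and a direction served as a library. No column could be matched to a named sample. A SNP counted as exonic where its exon interval was given. Members and lists were chosen with earlier results of these data known. Depth and maternal share were compared over 8 directions, and skew and exonic share over 4 tables, with exact two-sided sign-flip permutation tests (scipy 1.17.1, python 3.11.15). SNPs with at least 10 reads in all 4 directions of a species were fitted with edgeR 4.0.16 (R 4.3.3), with an offset for the 2 to 1 dosage on the maternal columns, and p-values were adjusted by the Benjamini-Hochberg method over all SNPs tested. DESeq2 1.42.0 was an alternative. The edgeR parent-of-origin fit was tested on simulated data. The standard error of a deviation is its size divided by the square root of F. Shares have Wilson intervals at 95%, and a count of 0 is read against a floor of 3 reads.

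SNPs were named by a rule, at most 1 per gene and list: the 8 shared SNPs deepest in the less deeply read species, up to 5 per species with the smallest p among parent-of-origin calls, the 4 per species with the largest skew at 50 or more reads per direction, and those with at least 20 reads in all 8 directions, of which there were 0. The 6 genes with the most shared SNPs were also named. The most-read SNP of Co pair 2 falls under the rule as well.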

Additional observations from a re-analysis of the deposited data

How the results depend on the processing

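Of 171 alternatives over all results, 103 kept the direction and the side of the threshold (or the count within 1.5 times), 52 kept the direction only, 8 moved a count and 8 reversed a direction, and the causes were not tested. SNPs outside exons alone gave a mean log2 depth ratio of 0.025 and a mean skew difference of -0.0712, both reversed (the skew over 30, 2, 9 and 22 shared SNPs, with Cg pair 1 still higher by 0.0103), and a maternal share difference of -1.40 points, no longer past the threshold. The maternal share difference also missed the threshold against single-species SNPs of the same genes (-4.11 points, exact permutation p = 0.102), with members in both tables of the other species (-3.99, p = 0.0859), without the deepest 1% (-2.69), and in Cg alone (-3.65) or Co alone (-5.45). The depth ratio in Cg alone (-0.59) or Co alone (-0.43) had 4 directions, too few to pass. Leaving out each direction gave depth ratios of -0.55 to -0.47 and maternal share differences of -5.28 to -3.74. Leaving out each table gave skew differences of 0.0591 to 0.0676 and exonic differences of 0.434 to 2.10 points. The exonic difference was 6.31 points with members in both tables of the other species. It was -2.63 points without genes that hold 5 or more shared SNPs and -5.33 with 1 shared SNP per gene. Both of these reversing settings were chosen after seeing the data, as was the fit without the most-read SNPs. Parent-of-origin calls at Co shared SNPs were 0 with DESeq2, 5 with exonic SNPs only, 3 with no library block, and 0 without each direction in turn. Over all SNPs tested these fits called 47, 150, 129 and 0 to 1, against 165. With other offsets, 7 and 8 of the 65 shared SNPs were called, against 156 and 161 of all 3180. A minimum of 20 reads gave 7 of 36 (140 of all 1772), and a minimum of 1 read gave 6 of 242 (153 of all 9249). The called share was thus lower with the lower minimum, for shared and for all SNPs. Accession calls at Co shared SNPs were 15 to 28, against 21 of 65 in the main fit (724 of all 3180). The 15 were of 57 tested with exonic SNPs only (446 of all 2825). The 28 were of 242 tested with a minimum of 1 read (982 of all 9249), a lower share than in the main fit. The Cg accession count was 1 with a minimum of 1 read, against 0, and a minimum of 20 reads left no shared Cg SNP to test. Single deviations reversed only when a direction was left out, in each case without direction 2 of a Co pair. Over the directions left out in turn, the log2 deviation spanned -1.26 to 0.10 at 2995480 of scaffold 2, -9.74 to 1.78 at 7695799 of scaffold 2, and -3.48 to 0.67 at 3427358 of scaffold 6. A block by replicate number could not be fitted, since no column is tied to a numbered sample. Depth limits most of the set, since 437 of 641 shared SNPs had no skew value.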
